A study of Mus musculus and Bos taurus with 6 samples.

Results

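miR-126 is a miRNA of endothelial cells, the cells that line blood vessels, and the data on it comprise 4 lines of the deposited lists, namely mmu-miR-126a-3p and mmu-miR-126a-5p among the 1750 lines of the mouse list, and the 3p and 5p arms of bta-miR-126 among the 1539 lines of the bovine list. The lines were chosen by name alone, and all 4 passed every filter on low counts. Small RNA was sequenced from whole lactating mammary tissue in 3 groups of 2 libraries. The mouse group was total RNA from glands of FVB/N mice on day 12 of lactation. The AGO2 group was RNA recovered from mammary glands of the same strain and day by co-immunoprecipitation with a monoclonal antibody to Argonaute 2. It reads the recovered miRNA relative to each other. The series holds no control immunoprecipitation, so miRNA held by this protein and background of the procedure cannot be told apart. The bovine group was biopsies of Holstein cows in mid-lactation on a low-forage ration with 46% forage and 54% concentrate, each library being a pool of 2 cows. The labels name no transgene, deletion or drug in any group. The 2 AGO2 libraries came from 2 animals. They differed in make-up, with a count in 839 lines of library 1 and in 1080 lines of library 2. The paper reports many low-count reads in its second AGO2 sample, and the removal of a large part of the AGO2 reads in cleaning. For the total RNA, glands of 2 mice were collected, and the sources used here do not tie each library to a mouse or gland. The p-values therefore measure the spread between libraries, which may be technical in part. That spread is pooled over the features of a fit, to an extent that differs between fits.

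A miRNA gene is transcribed into a hairpin, from which a short duplex is cut. One strand of the duplex is usually retained by an Argonaute protein, where bases 2 to 8 of the strand, its seed, pair with target mRNA, and the other strand is usually degraded. miR-126 is known from endothelial cells, where it acts in vessel integrity and growth factor signalling, and both of its strands have been assigned targets. Its gene lies within Egfl7, which encodes a factor secreted by endothelial cells.

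The mouse hairpin Mir126a lay at chr2:26591357-26591429 of GRCm38, on the plus strand. It was inside an intron in 8 of the 9 annotated Egfl7 transcripts that span it and inside an exon of 1. The overlapping model Gm20532 also spans it. The RefSeq sequence of this hairpin is shown because both strands measured below come from it, with the 5p arm and then the 3p arm in capitals.
Mir126a hairpin: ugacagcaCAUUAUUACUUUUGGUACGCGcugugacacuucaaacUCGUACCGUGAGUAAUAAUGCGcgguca
The 5p arm occupied chr2:26591365-26591385 and the 3p arm chr2:26591402-26591423. The mature sequences under which the reads were counted are shown next, since the species differ in one of them, with the seed in capitals.
mmu-miR-126a-3p: tCGTACCGtgagtaataatgcg
bta-miR-126-3p: cGTACCGTgagtaataatgcg
mmu-miR-126a-5p: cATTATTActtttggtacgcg
bta-miR-126-5p: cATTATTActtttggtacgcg

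The 5p arm was listed with the same 21 nt in both species. The bovine 3p arm was listed with 21 nt and the mouse 3p arm with 22 nt, because the bovine entry started 1 nt further downstream. Its seed was therefore GTACCGT, against CGTACCG in mouse. In neither list did any other line carry the seed of either arm, and no line of the bovine list carried the mouse 3p seed. A shifted start was not usual. Of 251 miRNA matched between the species, 196 overlapped without a mismatch, and 15 of these (7.65%) were listed with different starts, 5 of them with the bovine start 1 nt later. miR-126-3p was the most abundant of the 15 in bovine, at a mean of 34646 RPM (counts scaled to a library sum of 1000000), followed by miR-29a-3p at 14533 RPM.

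The base missing from the bovine listing was present in a bovine precursor of the deposited list of predictions. This candidate, on the minus strand at chr11:104131416-104131472 of UMD3.1, was the antisense of the miR-126 hairpin, and its 57 nt were the first 57 of the 58 nt of the mouse antisense hairpin Mir126b. Its complement, which is the sense strand of bovine miR-126, is shown with the stretch from the mouse 3p start onwards in capitals.
Bovine sense strand: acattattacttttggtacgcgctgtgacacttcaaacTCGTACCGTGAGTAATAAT
The base before the bovine 3p start was T, as in mouse, and the first 19 of the 22 bases of the mouse listing were found before the candidate ended. The listed start in bovine thus differed from the mouse start at a position where this precursor carries the same base. A count in these lists joins reads that begin close to the listed position, so the counts do not tell at which base the bovine reads began.

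Both arms were among the more abundant miRNA of every library. In mouse library 1 the 3p arm was counted 151305 times, or 16270 RPM, and in library 2 171764 times, or 20468 RPM. In the AGO2 libraries it reached 26490 counts (6776 RPM) and 33833 counts (6711 RPM). The bovine libraries held 363884 counts (38701 RPM) and 324697 counts (30592 RPM). The 3p arm was thus highest in bovine, intermediate in mouse and lowest in AGO2, without overlap between groups. By mean level it ranked 7 in bovine, 17 in mouse and 22 in AGO2.

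The 5p arm followed another order. It was counted 73690 and 115781 times in the mouse libraries, corresponding to 7924 and 13797 RPM. With AGO2, 87969 and 111453 counts were obtained, which is 22503 and 22107 RPM. In bovine the counts were 222420 and 269383, or 23655 and 25380 RPM. The mouse libraries were the lowest for this arm, and the AGO2 and bovine libraries lay close together, with means that differed by 2213 RPM against an SD of 1220 RPM in bovine and 279.8 RPM in AGO2. Its rank by mean level was 23 in mouse, 9 in AGO2 and 11 in bovine. Since RPM are shares of a library, these levels are relative to the other miRNA, and in whole tissue fewer endothelial cells and less miR-126 per cell cannot be told apart. The bars for each library show both orders side by side.

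**Figure D1:**
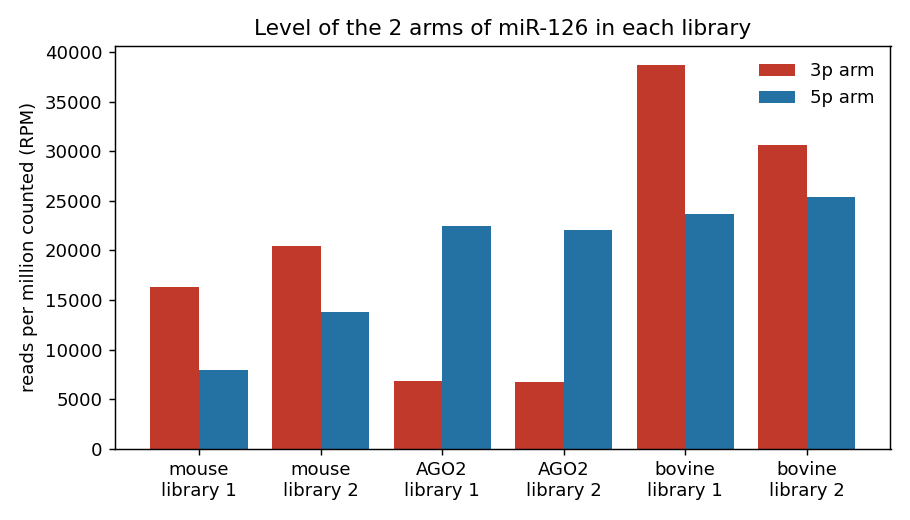
Level of each arm of miR-126, in RPM (vertical axis), in the 2 libraries of each group (horizontal axis); each bar is 1 library. The 3p bar is the taller one in the mouse and bovine libraries, and the 5p bar is the taller one in both AGO2 libraries, at 22503 and 22107 RPM against 6776 and 6711 RPM.

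The balance of the arms was read within each library, where depth cancels out. The 3p arm made up 67.2% (95% exact binomial interval, 67.1 to 67.4) of the miR-126 counts in mouse library 1 and 59.7% (59.6 to 59.9) in library 2. Among AGO2 counts its share was 23.1% (22.9 to 23.4) and 23.3% (23.1 to 23.5). It came to 62.1% (61.9 to 62.2) and 54.7% (54.5 to 54.8) in bovine. These intervals cover counting error only, and the libraries of mouse and of bovine differed by far more than counting error. Every mouse and bovine library held more 3p than 5p counts and both AGO2 libraries held fewer. On the log2 scale the ratio of 3p to 5p was 1.04 and 0.57 in mouse, -1.73 and -1.72 in AGO2, and 0.71 and 0.27 in bovine. The mouse and bovine ranges overlapped, whereas the AGO2 ratios were apart from both.

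**Figure D2:**
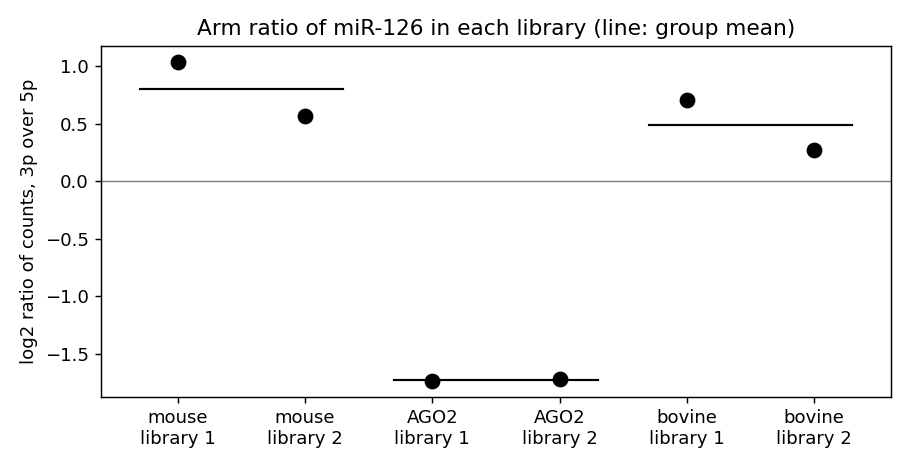
Ratio of 3p to 5p counts of miR-126 on the log2 scale (vertical axis) in each of the 6 libraries (horizontal axis); a point is 1 library, a short line the mean of its group, and the grey line at 0 marks equal arms. The AGO2 points lie at -1.73 and -1.72, below 0, and the other 4 points lie between 0.27 and 1.04.

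Within each group, both strands of miR-126 were abundant, which is given here as a description beside the other hairpins. Of the 367 mouse hairpins with 2 listed arms, 69 had an arm with a mean of at least 1000 RPM in mouse, and their median difference between arms was 8.41 on the log2 scale. The difference was 0.76 for miR-126a, the most even of the 69. In AGO2 it was also the most even of 64 such hairpins, at 1.73 against a median of 7.72, and in bovine of 66, at 0.50 against a median of 9.30. It was the only hairpin with both arms at a mean of at least 10000 RPM in mouse and in bovine, and in AGO2 there was none. The next hairpin by its lower arm was mir-30a in mouse, with 1198 RPM of 3p beside 18808 RPM of 5p. In AGO2 it was mir-181a-1, with 1336 RPM of 3p, and in bovine mir-199b, with 2290 RPM of 5p. Levels of hairpins that share a mature arm with a second gene, such as mir-181a-1, cannot be assigned to 1 gene, which did not apply to miR-126, whose mature sequences occurred in 1 line each per species.

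**Figure D3:**
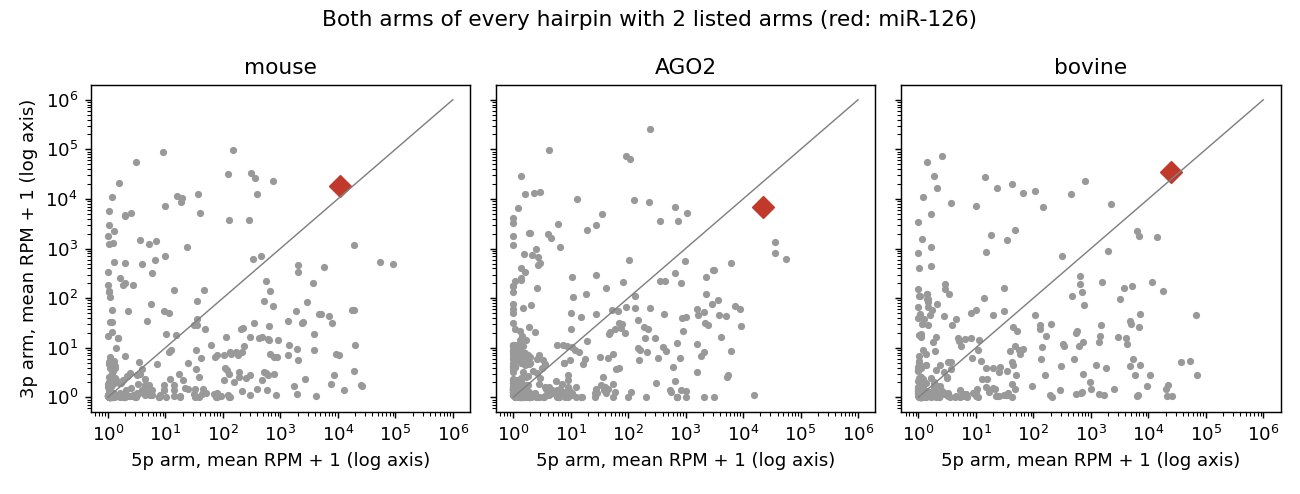
Mean level of the 3p arm (vertical axis) against the 5p arm (horizontal axis) for every hairpin with 2 listed arms, in RPM + 1 on log axes, in mouse, AGO2 and bovine libraries; each point is the mean of 2 libraries and the diagonal marks equal arms. miR-126 (red) is at the upper right close to the diagonal, on the 3p side in mouse and bovine and on the 5p side in AGO2.

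The first comparison set the levels of miRNA recovered with AGO2 against their levels in total RNA of the gland. The 3p arm was lower and the 5p arm higher in AGO2 than in mouse total RNA, by a log2 fold change of -1.30 (SE 0.43) and 1.18 (SE 0.42) in edgeR, with adjusted p-values of 0.0274 and 0.0422 over 299 miRNA. The limma 95% intervals ran from -2.14 to -0.43 for 3p and from 0.37 to 2.12 for 5p. Of the 299 miRNA, 27.8% were called, 15.4% higher and 12.4% lower, so that a call alone was frequent in this comparison. Neither AGO2 library overlapped the mouse libraries for either arm, although an exact two-sided permutation test of 2 against 2 cannot give a p below 0.333. The calls were close to the threshold. That of the 3p arm was lost without mouse library 2 (adjusted p 0.139) or AGO2 library 1 (0.326) or 2 (0.282) in edgeR, and that of the 5p arm without mouse library 1 (0.317) or AGO2 library 1 (0.0552) or 2 (0.199), while every direction was kept.

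The arms were also added together, in a test chosen after both arms had been seen. The summed arms came to 24194 and 34265 RPM in mouse and to 29280 and 28819 RPM in AGO2, the AGO2 libraries lying between the mouse libraries. The means were 29229 ± 7121 RPM (SD, n = 2) and 29049 ± 326.0 RPM (SD, n = 2). The fit pooled the spread almost wholly over precursors, so the gap between the mouse libraries hardly entered it. The summed level had a log2 fold change of 0.33 (SE 0.42) in edgeR, with an adjusted p of 0.548 over 232 precursors, of which 31.5% were called. The value was 0.60 without mouse library 2 and 0.08 without mouse library 1, neither of which passed the test.

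The exchange of arms was tested directly, as the change in the ratio of 3p to 5p. The ratio fell by 2.53 (SE 0.51) on the log2 scale from mouse to AGO2, a 5.77-fold decrease, with an adjusted p of 0.0438 in edgeR over 114 hairpins and a limma 95% interval from -3.77 to -1.28. In total 13 hairpins (11.4%) were called, 10 gaining 3p (8.77%) and 3 gaining 5p (2.63%), and 46 had an unadjusted p under 0.05. By p-value miR-126a ranked 13 of 114, the last of the 13 called. The size of the change in miR-126a ranked 49 of 114, and the median change of all hairpins was 1.18 towards 3p. The change was -2.29 without mouse library 1 and -2.76 without mouse library 2. It was -2.52 without AGO2 library 1 and -2.54 without AGO2 library 2. The call was lost in the fits without a mouse library. Each of these fits leaves 1 library in a group, and the calls of all hairpins shifted with it. They therefore do not measure how far miR-126a depends on a given library. Removal of a trend on GC content, which was 45.5% in the 3p and 38.1% in the 5p sequence, gave -2.42 with an adjusted p of 0.0509.

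Among the called hairpins, miR-126a was the only one with at least 1000 RPM in each arm in either group. The other hairpins that gained 5p, named here after their values were seen, were mir-10b, by -2.88 (SE 0.53), and mir-30c-2, by -4.32 (SE 0.77). Their 3p arms were minor in mouse, at 48.0 and 85.1 RPM. The arm with the greater count was exchanged between the groups, in both libraries of each, in 10 of the 114 hairpins and in 4 of the 13 called. These 4 were let-7d, mir-574, mir-7a-1 and miR-126a, of which the first 3 moved towards 3p and miR-126a towards 5p. Among the exchanges not called, mir-345 and mir-142 also moved towards 5p, named here after their values were seen, and the rest moved towards 3p. The log2 ratio of mir-345 went from 2.32 and 1.09 in mouse to -1.46 and -2.96 in AGO2. That of mir-142 went from 0.11 and 0.86 to -0.68 and -0.92. let-7d, a member of a large family of tumour-suppressing miRNA, had a log2 ratio of -7.40 and -7.29 in mouse and of 3.07 and 4.03 in AGO2.

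**Figure D4:**
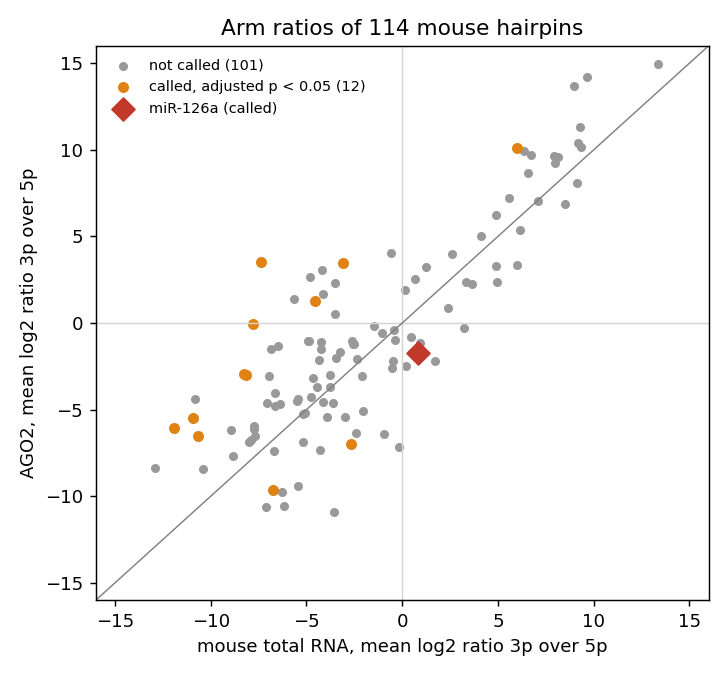
Mean log2 ratio of 3p to 5p counts in AGO2 (vertical axis) against mouse total RNA (horizontal axis) for 114 hairpins; each point is the mean of 2 libraries, the diagonal marks no change, and orange points were called at an adjusted p under 0.05 in edgeR. miR-126a (red diamond) is below the diagonal, from 0.80 in mouse to -1.73 in AGO2, in the quadrant where the major arm passed from 3p to 5p.

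Counts were also listed for the antisense hairpin. miR-126b is encoded opposite miR-126a, at chr2:26591363-26591420 of GRCm38 on the minus strand. Its arms are printed because they are the reverse complements of most of the miR-126a arms.
mmu-miR-126b-3p: cGCGTACCaaaagtaataatgtg
mmu-miR-126b-5p: aTTATTACtcacggtacgagtt
Both arms together had 37 and 33 counts in the mouse libraries, where miR-126a had 224995 and 287545. In AGO2 library 1 there was no count, which at 3 counts allows up to 0.767 RPM per arm, and in library 2 there were 37, of which 33 were of the 5p arm (6.55 RPM). The bovine candidate had 1 count in each library, both of its 5p arm, 4 supporting reads and a miRDeep2 score of 6.6. In the mouse libraries and AGO2 library 2, the counts of the sense hairpin were 3927- to 8713-fold those of the antisense hairpin.

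The second comparison asked how far the lactating glands of the species resemble each other. The sum of the arms was 62356 and 55972 RPM in bovine, or 59164 ± 4514 RPM (SD, n = 2), and its mean was 2.02-fold that of mouse. Both bovine libraries exceeded both mouse libraries in either arm. In the fit over 152 matched miRNA, with TMM scaling, bovine exceeded mouse by a log2 fold change of 0.46 (SE 0.24) for 3p and 0.73 (SE 0.32) for 5p, with adjusted p-values of 0.157 and 0.113 in edgeR. Neither passed the test, in a comparison where 57.9% of the miRNA did, 27.6% higher and 30.3% lower in bovine. The limma 95% intervals were -0.12 to 1.03 and -0.06 to 1.60. These calls depended on the scaling. With library totals alone, all log2 fold changes moved by a median of 0.47, and the arms had 0.92 and 1.17, with adjusted p-values of 0.0268 and 0.0276 in edgeR. Without mouse library 2, mouse was represented by library 1 alone, in which the 5p level was lower. The 5p arm then had a log2 fold change of 1.12. A fit with 1 mouse library cannot measure the spread within mouse, so no call is read from it. The RNA kit, the pooling of animals, parity and the sampling (collected glands or biopsies) all differed between the species. None of these can be told apart from species. The mouse libraries were the reference in both comparisons, which therefore are not independent.

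The arm ratio did not differ detectably between the species. Its change from mouse to bovine was -0.31 (SE 0.54) on the log2 scale, with an adjusted p of 0.725 in edgeR over 17 hairpins matched in both arms, and a limma 95% interval of -1.42 to 0.79. In this comparison 47.1% of the hairpins were called. When hairpins were matched by their listed sequences, 48.3% of 60 were called and miR-126 was not, with an adjusted p of 0.570. By size its change ranked 53 of the 60 and 14 of the 17. One hairpin of the 17 exchanged its major arm between the species, mir-142 of leukocytes, which went from 0.11 and 0.86 in mouse to -1.30 and -1.08 in bovine. Among the 60 matched by sequence, mir-33 also did, from -1.74 and -3.09 in mouse to 0.41 and 0.38 in bovine.

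The level of other miRNA reported from endothelial cells was set beside that of miR-126. This list held 14 miRNA, among them miR-221-3p and miR-222-3p, which restrain angiogenesis, and miR-92a-3p of the miR-17-92 cluster. It also held miR-210-3p, which is induced by hypoxia, and the miR-23, miR-24 and miR-27 cluster. Several are also made by epithelial cells. In AGO2 over mouse 2 of the 14 fell, none rose and 12 did not pass the test, with a median log2 fold change of 0.02 against -0.12 for all 299 miRNA. The counts are to be read against 12.4% lower and 15.4% higher among all 299, and the share of members that fell was near the former. miR-24-3p went from 12483 and 12306 RPM in mouse to 2950 and 2894 RPM in AGO2, a log2 fold change of -1.93 (SE 0.47, adjusted p 0.00337 in edgeR). miR-210-3p fell by 1.94 (SE 0.57, adjusted p 0.0141 in edgeR). miR-27a-3p had a log2 fold change of 1.11 (SE 0.45, adjusted p 0.0690 in edgeR), which did not pass the test, beside 1.18 (SE 0.42) for miR-126a-5p, which did.

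In bovine over mouse 13 of the list were tested, 4 rose, 5 fell and 4 did not pass, with a median of 0.02 against 0.04 for all 152 miRNA. Among all 152, 27.6% were higher and 30.3% lower, so that nothing particular to the list is read from these counts. The members that rose were miR-23a-3p (log2 fold change 0.99), miR-23b-3p (1.22), miR-92a-3p (2.24) and miR-100-5p (2.45). Those that fell were miR-130a-3p (-1.10), miR-222-3p (-2.21), miR-221-3p (-2.29), miR-10a-5p (-2.66) and miR-210-3p (-3.31). The summed level of the list was 62923 to 67916 RPM in mouse, 56779 to 63184 RPM in AGO2 and 108780 to 113312 RPM in bovine.

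**Figure D5:**
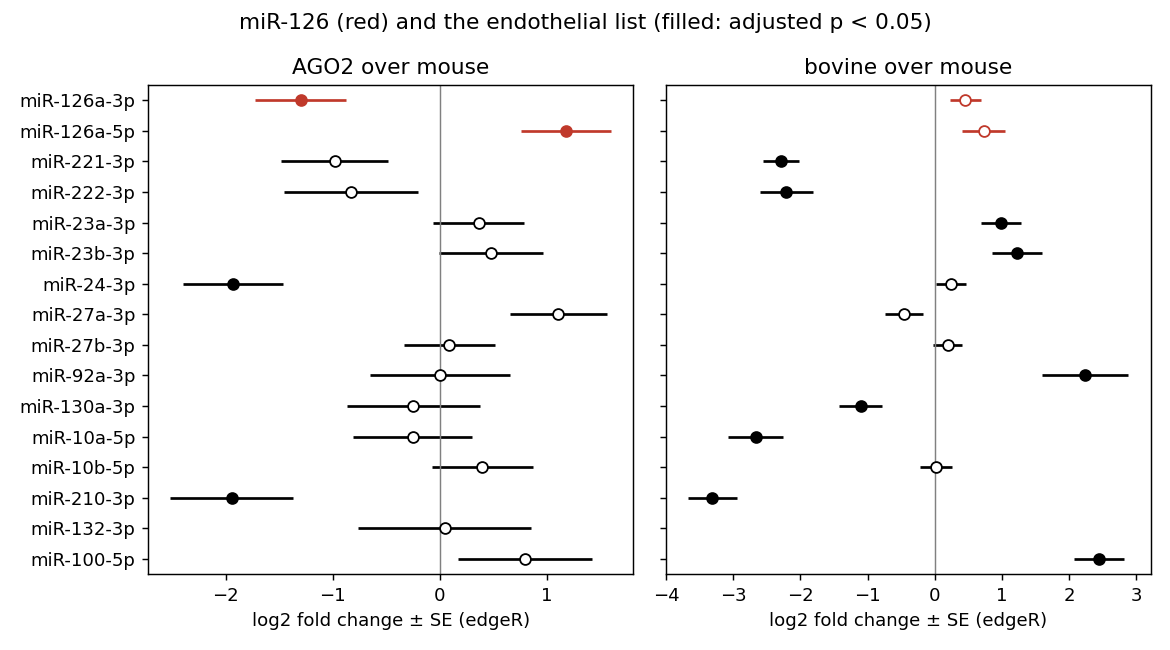
Log2 fold change (horizontal axis) with its standard error for the arms of miR-126 (red) and 14 miRNA reported from endothelial cells (black), in AGO2 over mouse and bovine over mouse, by edgeR with 2 libraries per group; filled points have an adjusted p under 0.05. In AGO2 the arms of miR-126 lie on opposite sides of 0, at -1.30 and 1.18, and in bovine both lie above 0 without passing the test.

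The other cell type lists are given as values, and their counts stand beside 15.4% higher and 12.4% lower among all 299 miRNA in AGO2, and 27.6% higher and 30.3% lower among all 152 in bovine, with so few members per list that nothing is read from the shares. The 6 epithelial miRNA, of the miR-200 family and miR-205, summed to 159803 and 188746 RPM in mouse, to 338037 and 368284 RPM in AGO2 and to 77607 and 79458 RPM in bovine. Most of the AGO2 sum was miR-200a-3p, at 267861 and 255991 RPM, against 75449 and 118479 RPM in mouse. In AGO2, 2 of these 6 rose and 2 fell, with a median log2 fold change of -0.19. In bovine 1 rose and 4 fell, with a median of -1.35. The 3 erythroid miRNA, markers of red blood cells, had 13343 and 6504 RPM in mouse libraries 1 and 2. In the same order they had 32468 and 15527 RPM in AGO2, and 1709 and 1098 RPM in bovine. Of the 3, 1 was higher in AGO2 and 2 were lower in bovine. The 5 miRNA of smooth muscle and fibroblasts had 54443 and 71185 RPM in mouse, 37249 and 35114 RPM in AGO2 and 78041 and 63691 RPM in bovine. None of the 5 was called in AGO2 and 1 rose in bovine. The 5 leukocyte miRNA stayed between 1263 and 3285 RPM in all libraries, with none called in AGO2, and with 2 higher and 2 lower in bovine. The 3 miRNA of skeletal muscle summed to 27.9 to 782.1 RPM, with miR-206-3p at a count of 0 in mouse library 2. Of the 2 tested in AGO2 1 was lower, and the 1 tested in bovine was higher. The part of these cell types in the values of miR-126 was not tested.

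The miRNA whose profiles over the 6 libraries were most like each arm are listed as a description. Likeness was the Euclidean distance between log2(RPM + 1) values centred on their mean, among 51 miRNA with a mean of at least 1000 RPM in every group. Nearest to the 3p arm were miR-16-5p (distance 0.76), miR-26b-5p (0.76), miR-24-3p (0.76), miR-26a-5p (0.83) and miR-497-5p (1.02), against a median distance of 2.29 over 50 miRNA. All of these were lower in AGO2 than in mouse and higher in bovine, by their levels, as the 3p arm itself was. They were picked for likeness to that arm over the same libraries, so the shared pattern is no separate result. miR-16-5p, for instance, had 14407 and 10996 RPM in mouse, 6701 and 4370 RPM in AGO2 and 25514 and 26865 RPM in bovine. The 5p arm was nearest to miR-10b-5p (1.10), miR-199a-3p (1.27), miR-27b-3p (1.27), miR-27a-3p (1.40) and miR-99a-5p (1.43), against a median of 2.47. The arms of miR-126 were 2.79 from each other, and 34 miRNA were closer to the 3p arm than its partner strand was. At that distance no miRNA can be as near to both arms as the members of these sets of 5 were to 1 arm. The sets therefore shared no member by construction, which is no separate result.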

How the data were processed

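Libraries were built by poly(A) tailing. After trimming of the poly-A tails, the authors selected sequences between 17 and 28 nt and quantified each mature line with miRDeep2 against miRBase 20 and predicted precursors (GRCm38, UMD3.1). The deposited values are raw counts, and the 6 deposited columns of normalised values were not used. The deposited score of a predicted precursor is that of miRDeep2 on pooled libraries. A count joins reads around the listed position, so start variants cannot be seen.

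Counts were scaled to RPM by library sums, which were 8391916 to 9299807 in mouse, 3909166 to 5041406 in AGO2 and 9402483 to 10613807 in bovine, and a count of 0 was taken to allow 3 counts (0.283 to 0.767 RPM). Tests used edgeR 4.0.16, run in R 4.3.3 (TMM scaling, quasi-likelihood F test, Benjamini-Hochberg adjustment over all features tested, threshold 0.05). For levels, a count above 175 in 1 library was required for AGO2 over mouse, and 100 RPM in 1 library for bovine over mouse, with species matched by the name lines of a supplementary list. The arm ratio was the interaction of arm and group, over hairpins with a mean count of at least 20 in each arm. The standard error was the log2 fold change over the square root of F. limma 3.58.1 gave the 95% intervals and DESeq2 1.42.0 an alternative. Procedures were also run on simulated counts, the outcome of which is not given here and is not used as support. Exact binomial intervals were computed in SciPy 1.17.1.

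Named miRNA were both arms of miR-126 and miR-126b, the members of the cell type lists, the 5 nearest profiles per arm, hairpins called with at least 1000 RPM in each arm, and hairpins with both arms at 10000 RPM. The members, lists and rules were chosen with earlier results of these data known. The sequences of hairpins are from RefSeq (GRCm38.p6), which held a mature entry for the 3p arm of miR-126a and none for its 5p arm. The mature sequences are those of the deposited lists, which write T for U.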

Additional observations from a re-analysis of the deposited data

How the results depend on the processing

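No call or value of miR-126 reversed its direction under the alternatives run. No paired analysis was possible because the labels give no replicate numbers that tie libraries to animals. For 3p in AGO2 over mouse the call was lost with no filter (log2 fold change -1.44), with at least 1000 RPM (-0.85) and with the GC trend taken out (-1.10), at adjusted p-values of 0.0901, 0.147 and 0.0579 in edgeR, and the range without 1 library was -1.49 to -0.92. For 5p it was lost with library totals alone (1.04, adjusted p 0.0769 in edgeR) and with no filter (1.06, adjusted p 0.477 in edgeR), and the range was 0.80 to 1.64. The arm ratio of AGO2 over mouse lost its call with at least 1 count per arm (-2.53, adjusted p 0.0711 in edgeR) and with the GC trend taken out (-2.42), with a range of -2.76 to -2.29 without 1 library. In bovine over mouse, library totals alone gave calls for 3p (0.92) and 5p (1.17), and without 1 library the ranges were 0.23 to 0.58 for 3p, 0.34 to 1.12 for 5p and -0.55 to -0.08 for the arm ratio. The arms summed, an alternative chosen after seeing the data, ranged from 0.08 to 0.60. Other than where fewer miRNA or libraries entered by construction, the cause was not tested. A single library left in a group was assumed to vary like the other group.

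The number of miRNA called higher in AGO2 was 46, against 29 with no filter and 12 at 1000 RPM (31 to 62 without 1 library), and the number called lower was 37, against 8 at 1000 RPM (21 to 33). For summed arms, 44 higher and 29 lower became 15 to 30 and 12 to 27 without 1 library. In bovine over mouse, 42 higher and 46 lower became 73 and 71 with no filter and 21 and 24 at 1000 RPM (21 to 61 and 25 to 60 without 1 library). Arm ratios called towards 3p in AGO2 were 10, against 1 with the GC trend taken out (0 to 44 without 1 library), and towards 5p 3, against 6 with at least 1 count per arm, 6 at a mean count of 200 and 0 with the GC trend taken out (0 to 20). In bovine over mouse, 3 towards 3p and 5 towards 5p became 5 towards 3p with at least 1 count per arm, 12 and 17 when matched by sequence, and 2 towards 5p at a mean count of 200 (0 to 3 and 0 to 6 without 1 library). With TMM-scaled library sizes, the mean level in AGO2 was 7113 RPM of 3p and 23525 RPM of 5p, and in the scaling with bovine it was 20937 RPM of 5p in bovine and 21481 RPM of 3p in mouse.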
